A study of Saccharomyces cerevisiae with 3 samples.

Results

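The 55 genes described here encode proteins of the budding yeast cell wall, enzymes that build, remodel or cut the wall, and sensors of wall stress. They were taken from a list of names, chosen with earlier results of these data known, and placed by role. All 55 were found among the 6002 nuclear protein-coding genes of the sacCer3 build of the Saccharomyces cerevisiae genome. DNase-seq had been done on nuclei of 3 strains, with 1 library and 1 deposited list of DNase I hypersensitive sites per strain. The assay reads where DNase I cuts chromatin, and a hypersensitive site is a stretch called for its many cuts. The sba1Δ strain lacks SBA1, which encodes the yeast p23 co-chaperone of Hsp90, and the gcn5Δ strain lacks GCN5, whose product acetylates histones as part of SAGA, a transcriptional coactivator. Both deletions were isolates from a commercial collection, set against their parent BY4741 (MATa), the wild type. All 3 were grown in YPD rich medium with 2% glucose at 30 °C to an OD595 of 1.0. All 3 were then spheroplasted for 45 min with Zymolase, an enzyme mixture that digests the wall itself, before nuclei were isolated.

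The yeast wall is a mesh of beta-1,3-glucan and beta-1,6-glucan with some chitin, covered by an outer layer of heavily mannosylated proteins. Most of these mannoproteins reach the wall through a GPI anchor that is trimmed and joined to beta-1,6-glucan, while PIR proteins are linked directly to beta-1,3-glucan. Glucan is made at the plasma membrane and then cut and rejoined by enzymes in the wall, and chitin is cut at the septum when daughter cells separate. Transcription of many of these genes follows the cell cycle, wall stress or oxygen.

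The sba1Δ list held 2439 sites, the gcn5Δ list 3062 and the wild-type list 3260. The sba1Δ sites were wider, with a median of 350 bp, against 261 bp in gcn5Δ and 247 bp in wild type, and sites covered 1557 kb of the nuclear genome in sba1Δ, 1251 kb in gcn5Δ and 1217 kb in wild type. Read depth is unknown, so the lack of a site may mean that none was detectable. Since every strain had 1 library, no difference has a replicate check and none was tested. The intervals given are exact Clopper-Pearson 95% intervals over genes and cover counting error only, and for a count of 0 the limit given is the share that 3 counts would make. Both deletions were compared with the same wild-type list. The coding sequence of SBA1 was 1.84% covered in sba1Δ, 0% in gcn5Δ and 0% in wild type, the covered part being 12 of 651 bp at the end of a promoter site that all 3 lists hold. That of GCN5 was 29.4% covered in sba1Δ, 0% in gcn5Δ and 0% in wild type. SBA1 was thus covered, by those 12 bp, only in the library labelled as lacking it, and with 0% in wild type for both genes the lists cannot check the deletions, so the strain names rest on the labels alone.

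Coding sequences of wall genes lay under hypersensitive sites far more in sba1Δ than in the other 2 strains. Of the 86.1 kb of coding sequence in the 55 genes, 19.0% was covered in sba1Δ, 4.12% in gcn5Δ and 2.99% in wild type. Over all 6002 genes the shares were 9.44% in sba1Δ, 5.22% in gcn5Δ and 5.28% in wild type. At least 50% of the coding sequence was covered in 16 of the 55 genes in sba1Δ (29.1%, interval 17.6 to 42.9%), where 12.0% of all genes were. In gcn5Δ this held for 2 of the 55 (3.64%), against 6.05% of all genes, and in wild type also for 2 (3.64%), against 5.46% of all genes. Coverage was at least 25 percentage points higher than in wild type in 19 wall genes in sba1Δ (34.5%, interval 22.2 to 48.6%), where 11.9% of all genes passed that step. The 55 were chosen with earlier results of these data known, so these shares and intervals do not describe an independently chosen set. Any coverage at all was found in 23 wall genes in sba1Δ (41.8%), 20 in gcn5Δ (36.4%) and 16 in wild type (29.1%), and over all genes in 32.2% in sba1Δ, 31.5% in gcn5Δ and 33.6% in wild type. At least 90% was covered in 9 wall genes in sba1Δ (16.4%, all genes 6.43%), 1 in gcn5Δ (1.82%, all genes 3.08%) and 0 in wild type, which allows a share of up to 5.45% (all genes 2.62%). No wall gene was lower by at least 25 points in sba1Δ, which allows a share of up to 5.45%, and 2.43% of all genes were. In gcn5Δ 1 wall gene, HPF1, was higher by at least 25 points (all genes 2.00%). The greater width of sba1Δ sites moves with this result. When every site was set to 250 bp around its midpoint, wall coding coverage was 6.31% in sba1Δ, 2.26% in gcn5Δ and 2.38% in wild type, while that of all genes was 3.18% in sba1Δ, 2.97% in gcn5Δ and 3.50% in wild type. At that width 1 wall gene was at least 50% covered in sba1Δ, 0 in gcn5Δ and 0 in wild type, and 5 were at least 25 points above wild type in sba1Δ. However, a single site of 250 bp cannot cover 50% of a gene over 500 bp, and the median length of the 16 was 960 bp. Nor can it give 25 points in a gene over 1000 bp. These 2 counts therefore cannot show what site width contributed. The 5 genes at least 25 points above wild type held 4 of the 19, TIP1, HPF1, DAN1 and PIR3. The other was CCW12, at 61.4 points with sites of 250 bp and 22.4 points with the sites as listed. For SPI1, KRE1 and CWP2 the difference was 0 points at that width.

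**Figure D1:**
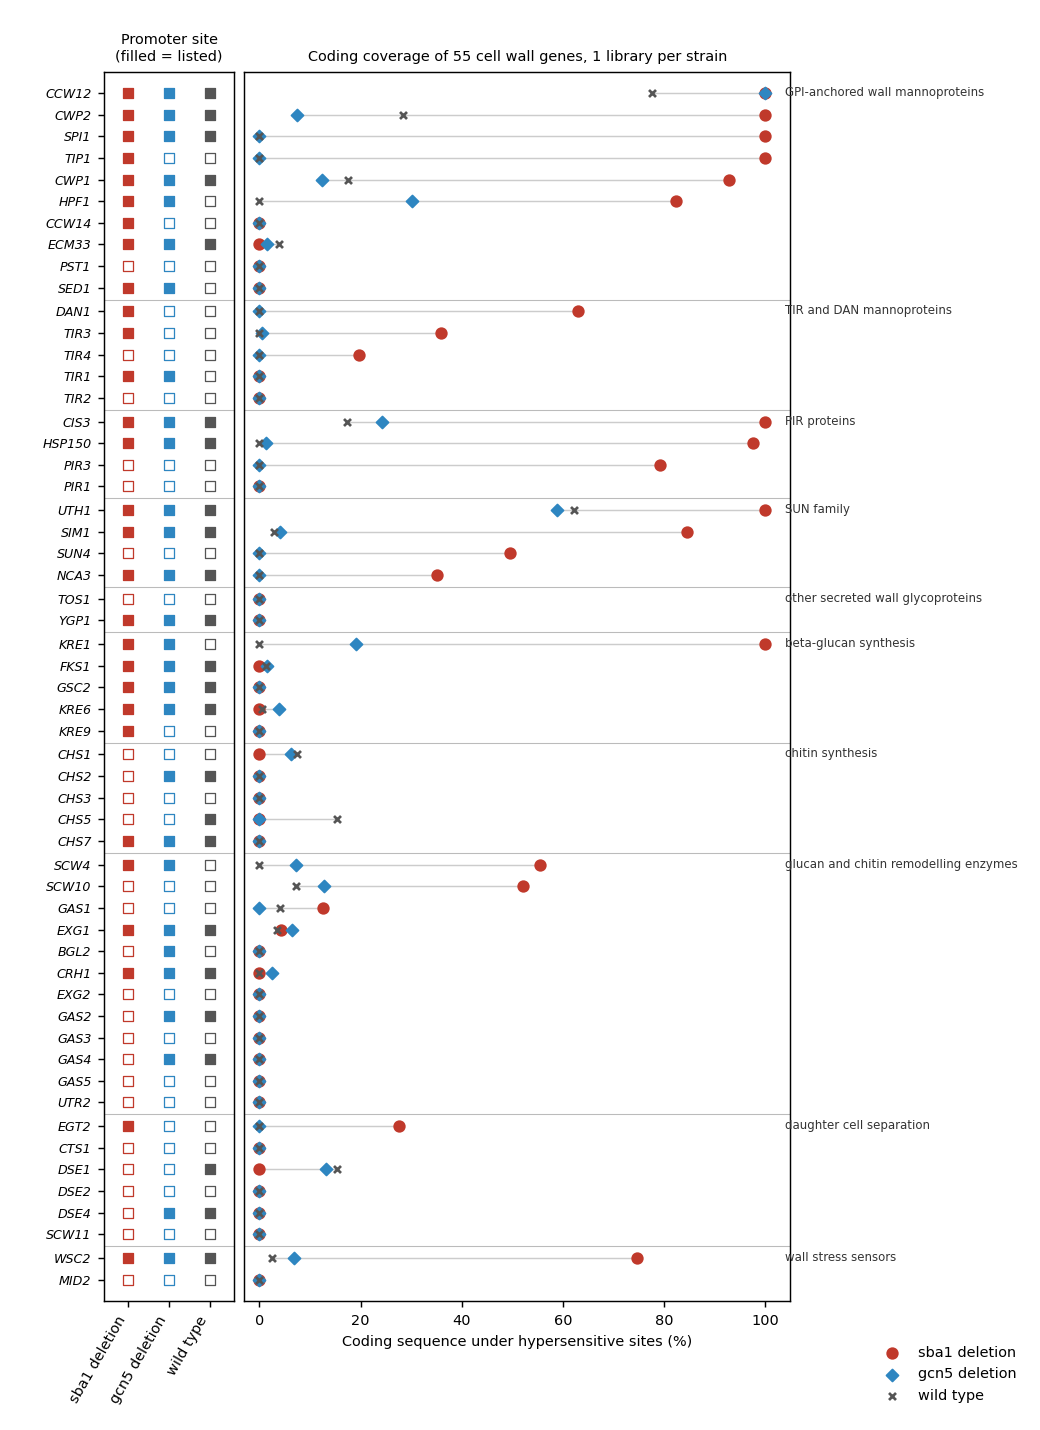
Share of each coding sequence under hypersensitive sites (x axis, percent) for the 55 wall genes by role, with 1 point per strain, and at the left a filled square where the promoter holds a site. The sba1Δ points of 7 genes sit at 100% (CCW12, CWP2, SPI1, TIP1, CIS3, UTH1 and KRE1), while the gcn5Δ and wild-type points of all genes other than CCW12, UTH1 and HPF1 sit below 30%.

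By role, the coverage was concentrated in the genes placed here as structural and secreted wall proteins. When the roles were pooled after the values had been seen, the 25 genes for structural and secreted wall proteins had 46.0% of their coding bases covered in sba1Δ, 8.88% in gcn5Δ and 5.48% in wild type. The 30 genes for synthesis, remodelling, separation and sensing had 7.40% covered in sba1Δ, 2.07% in gcn5Δ and 1.92% in wild type. The 2 groups also differed in median coding length, 1014 bp for the 25 and 1602 bp for the 30. Over all genes, 19.0% of those under 1000 bp were at least 50% covered in sba1Δ, and 2.34% of those from 2000 bp. Role was not separated from length. The structural group held 12 of the 16 genes that were at least 50% covered in sba1Δ. The other group also holds genes for proteins found in the wall, among them SCW4 and SCW10, which were at least 50% covered too.

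Among the 10 GPI-anchored mannoproteins, 47.8% of the coding bases were covered in sba1Δ, 14.0% in gcn5Δ and 5.75% in wild type, and 6 genes passed 50% in sba1Δ. SPI1, which encodes a wall protein induced in stationary phase and by weak acids (chromosome V, 468370 to 468816), was 100% covered in sba1Δ, 0% in gcn5Δ and 0% in wild type. TIP1, a cold-shock-induced mannoprotein gene (chromosome II, 372103 to 372735), was likewise 100% covered in sba1Δ and had no coverage in gcn5Δ or wild type. In both, 1 sba1Δ site lay over the whole gene, and in the other lists no site touched its coding sequence. CWP2, which encodes a major small mannoprotein (chromosome XI, 259253 to 259531), was 100% covered in sba1Δ, 7.53% in gcn5Δ and 28.3% in wild type. Its neighbour CWP1, whose product is placed at the birth scar (chromosome XI, 261132 to 261851), was 92.8% covered in sba1Δ, 12.4% in gcn5Δ and 17.5% in wild type. The neighbours were covered by separate sites. The sign for CWP1 depended on the sites used: with sites of 250 bp it differed from wild type by -7.22 points in sba1Δ, and with the better-scored 50% of each list by 12.4 points in gcn5Δ. The annotated genes YKL097C and YKL096C-B lie wholly under the CWP2 site in all 3 lists, so that site cannot be given to CWP2 alone.

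CCW12, which encodes a small and abundant mannoprotein (chromosome XII, 369697 to 370098), had the highest coverage of the 55 in gcn5Δ and wild type, with 100% covered in sba1Δ, 100% in gcn5Δ and 77.6% in wild type. In sba1Δ a single site of 3559 bp lay over it, and it also took in all of AHP1, YLR111W and YLR112W. The gcn5Δ site over CCW12 was 2060 bp wide and the wild-type site 1503 bp. HPF1 encodes a large mannoprotein that reduces protein haze in wine, and its gene lies 28.7 kb from the end of chromosome XV (28703 to 31606). It was 82.3% covered in sba1Δ, 30.1% in gcn5Δ and 0% in wild type, and was the only one of the 55 that was at least 25 points above wild type in both deletions. ECM33, which encodes a GPI protein needed for apical bud growth, was 0% covered in sba1Δ, 1.42% in gcn5Δ and 3.83% in wild type. SED1, CCW14 and PST1, further GPI protein genes, had no coding coverage in any strain.

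The 4 PIR genes and the 4 SUN genes had the highest pooled coverage in sba1Δ. PIR coding bases were 68.0% covered in sba1Δ, 4.63% in gcn5Δ and 3.03% in wild type. HSP150, also called PIR2 (chromosome X, 120449 to 121690), was 97.6% covered in sba1Δ, 1.29% in gcn5Δ and 0% in wild type. CIS3, also called PIR4 (chromosome X, 122265 to 122948), lies next to it and was 100% covered in sba1Δ, 24.3% in gcn5Δ and 17.4% in wild type. These neighbours were covered by separate sba1Δ sites. PIR3 (chromosome XI, 144401 to 145378) was 79.2% covered in sba1Δ and 0% in gcn5Δ and wild type. Its neighbour PIR1 (chromosome XI, 141794 to 142819), of the same family and similar length, had no site in its promoter or coding sequence in any strain.

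The SUN family holds related proteins with glucosidase-like sequence, among them SUN4, which acts in septation, and UTH1, which affects life span. UTH1 (chromosome XI, 519527 to 520624) was 100% covered in sba1Δ, 58.9% in gcn5Δ and 62.2% in wild type, and was, with CCW12, the only gene of the 55 over 50% in every strain. SIM1 (chromosome IX, 128151 to 129581) was 84.6% covered in sba1Δ, 4.12% in gcn5Δ and 2.80% in wild type. SUN4 (chromosome XIV, 501515 to 502777) was 49.6% covered in sba1Δ and 0% in gcn5Δ and wild type. NCA3 (chromosome X, 193860 to 194873) was 35.2% covered in sba1Δ and 0% in gcn5Δ and wild type. All 4 were higher in sba1Δ than in wild type, and SUN4 lay just under the 50% step. The difference at NCA3 was 0 points when lists were limited to their better-scored 50% or to equal covered bases.

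TIR and DAN genes encode mannoproteins that are transcribed mainly in cold or in the absence of oxygen. None of the 5 listed had a promoter site in wild type, where 43.2% of all genes had one. With so few genes, a count of 0 allows a share of up to 3 of 5. DAN1 (chromosome X, 708811 to 709707) was 63.1% covered in sba1Δ and 0% in gcn5Δ and wild type. TIR3 (chromosome IX, 333727 to 334536) was 35.9% covered in sba1Δ, 0.617% in gcn5Δ and 0% in wild type. TIR4 had 19.6% covered in sba1Δ and 0% in gcn5Δ and wild type. TIR1 and TIR2 had no coding coverage in any strain. Thus 3 of the 5 genes had coverage in sba1Δ, where 32.2% of all genes did. None had any in wild type, where 33.6% of all genes did.

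Genes for polymer synthesis were mostly free of sites over their coding sequence. They were also long, with a median of 2163 bp for beta-glucan synthesis and 2892 bp for chitin synthesis, and role was not separated from length. KRE1, which encodes a GPI protein of beta-1,6-glucan assembly and the receptor of K1 killer toxin (chromosome XIV, 33294 to 34235), was 100% covered in sba1Δ, 19.1% in gcn5Δ and 0% in wild type. Its sba1Δ site of 2841 bp ran upstream over 51.1% of VNX1, a vacuolar cation exchanger gene. FKS1 and GSC2, the alternative catalytic subunits of beta-1,3-glucan synthase, had at most 1.46% of their coding sequence covered in any strain. KRE6, which encodes a beta-1,6-glucan synthesis protein of the Golgi and ER, was 0% covered in sba1Δ, 3.84% in gcn5Δ and 0.555% in wild type, and KRE9, a secreted protein gene of the same pathway, was 0% in all. The 5 chitin synthesis genes had no coding base covered in sba1Δ, 1.67% in gcn5Δ and 4.42% in wild type. CHS1, which encodes the repair chitin synthase, was 0% covered in sba1Δ, 6.27% in gcn5Δ and 7.45% in wild type. CHS5, which encodes a protein that carries chitin synthase III to the surface (chromosome XII, 787664 to 789679), was 0% covered in sba1Δ and gcn5Δ and 15.4% in wild type. CHS2, CHS3 and CHS7, which encode the septum synthase, the main chitin synthase and its ER export factor, were 0% covered in every strain. Chitin synthesis was therefore the only role whose pooled coding coverage was lower in both deletions than in wild type.

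Among the 12 remodelling enzymes, SCW4 and SCW10, which encode related glucanase-like wall proteins, stood above the rest. SCW4 (chromosome VII, 1048798 to 1049958) was 55.5% covered in sba1Δ, 7.24% in gcn5Δ and 0% in wild type. SCW10 (chromosome XIII, 879063 to 880232) was 52.2% covered in sba1Δ, 12.8% in gcn5Δ and 7.18% in wild type. Both lay just inside the 50% step. GAS1, which encodes the main glucan elongase, was 12.6% covered in sba1Δ, 0% in gcn5Δ and 4.17% in wild type. EXG1, the major exoglucanase gene, had 4.23% covered in sba1Δ, 6.38% in gcn5Δ and 3.49% in wild type. CRH1, which encodes a chitin-glucan transglycosylase, had 0% in sba1Δ, 2.49% in gcn5Δ and 0% in wild type. The other 7 enzymes, GAS2, GAS3, GAS4, GAS5, UTR2, BGL2 and EXG2, had no coding coverage in any strain. WSC2, a sensor gene of the cell wall integrity pathway (chromosome XIV, 105184 to 106695), was 74.7% covered in sba1Δ, 6.94% in gcn5Δ and 2.51% in wild type. MID2, the other sensor gene listed, had no site in any strain. Of the 6 daughter separation genes, EGT2, a gene of the early G1 programme (chromosome XIV, 24048 to 27173), was 27.5% covered in sba1Δ and 0% in gcn5Δ and wild type, and with equal covered bases its difference was 0 points. DSE1 was 0% covered in sba1Δ, 13.2% in gcn5Δ and 15.4% in wild type, through a site at the end of the gene. CTS1, which encodes the chitinase that cuts the septum, and DSE2, DSE4 and SCW11 were at 0%, as were the secreted glycoprotein genes YGP1 and TOS1.

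**Figure D2:**
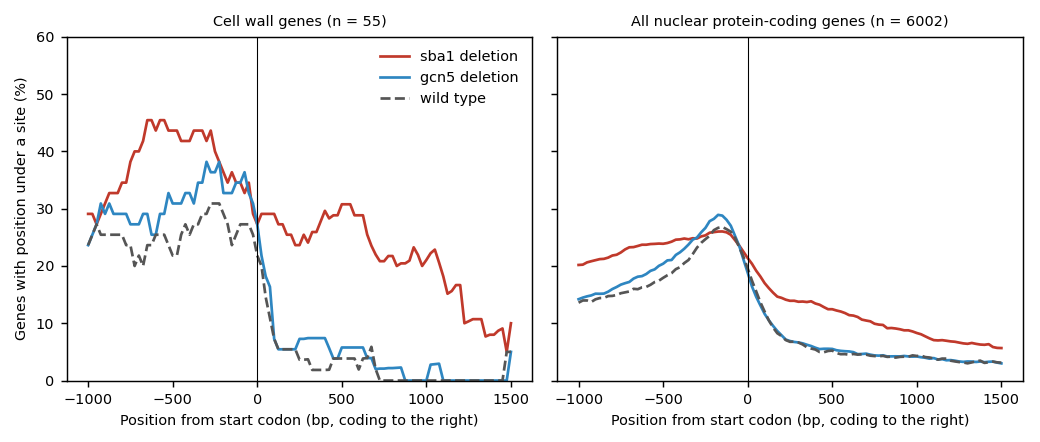
Share of genes with a site at each position (y axis, percent) against distance from the start codon (x axis, bp, negative upstream), for the wall genes and for all genes, 1 line per strain. At 500 bp inside the coding sequence 30.8% of the wall genes are under a site in sba1Δ, 5.77% in gcn5Δ and 3.85% in wild type.

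Aligned at the start codon, the wall genes differed most between strains inside the gene and some way upstream of it. At the start codon itself 27.3% of the 55 were under a site in sba1Δ, 27.3% in gcn5Δ and 21.8% in wild type, and over all genes 21.4% in sba1Δ, 18.8% in gcn5Δ and 19.6% in wild type. At 500 bp inside, which 52 of the genes reach, 16 were under a site in sba1Δ, 3 in gcn5Δ and 2 in wild type. Over all genes the shares at that position were 12.4% in sba1Δ, 5.5% in gcn5Δ and 5.2% in wild type. At 500 bp upstream 43.6% of the wall genes were under a site in sba1Δ, 30.9% in gcn5Δ and 21.8% in wild type, and of all genes 23.9% in sba1Δ, 20.4% in gcn5Δ and 17.9% in wild type, in the same order. At 950 bp upstream the wall genes stood at 27.3% in all 3 strains, and all genes at 20.6% in sba1Δ, 14.7% in gcn5Δ and 14.0% in wild type. The wall genes differed again at 1000 bp upstream, with 29.1% in sba1Δ, 23.6% in gcn5Δ and 23.6% in wild type. When each coding sequence was cut into 3 equal parts, the middle part of the wall genes was the most covered in sba1Δ, at 23.0%, against 2.36% in gcn5Δ and 1.94% in wild type. The part next to the start codon was 18.1% covered in sba1Δ, 7.57% in gcn5Δ and 4.87% in wild type. In gcn5Δ and wild type it was thus the most covered part of the wall genes. Over all genes, the part next to the start codon was the most covered in every strain.

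**Figure D3:**
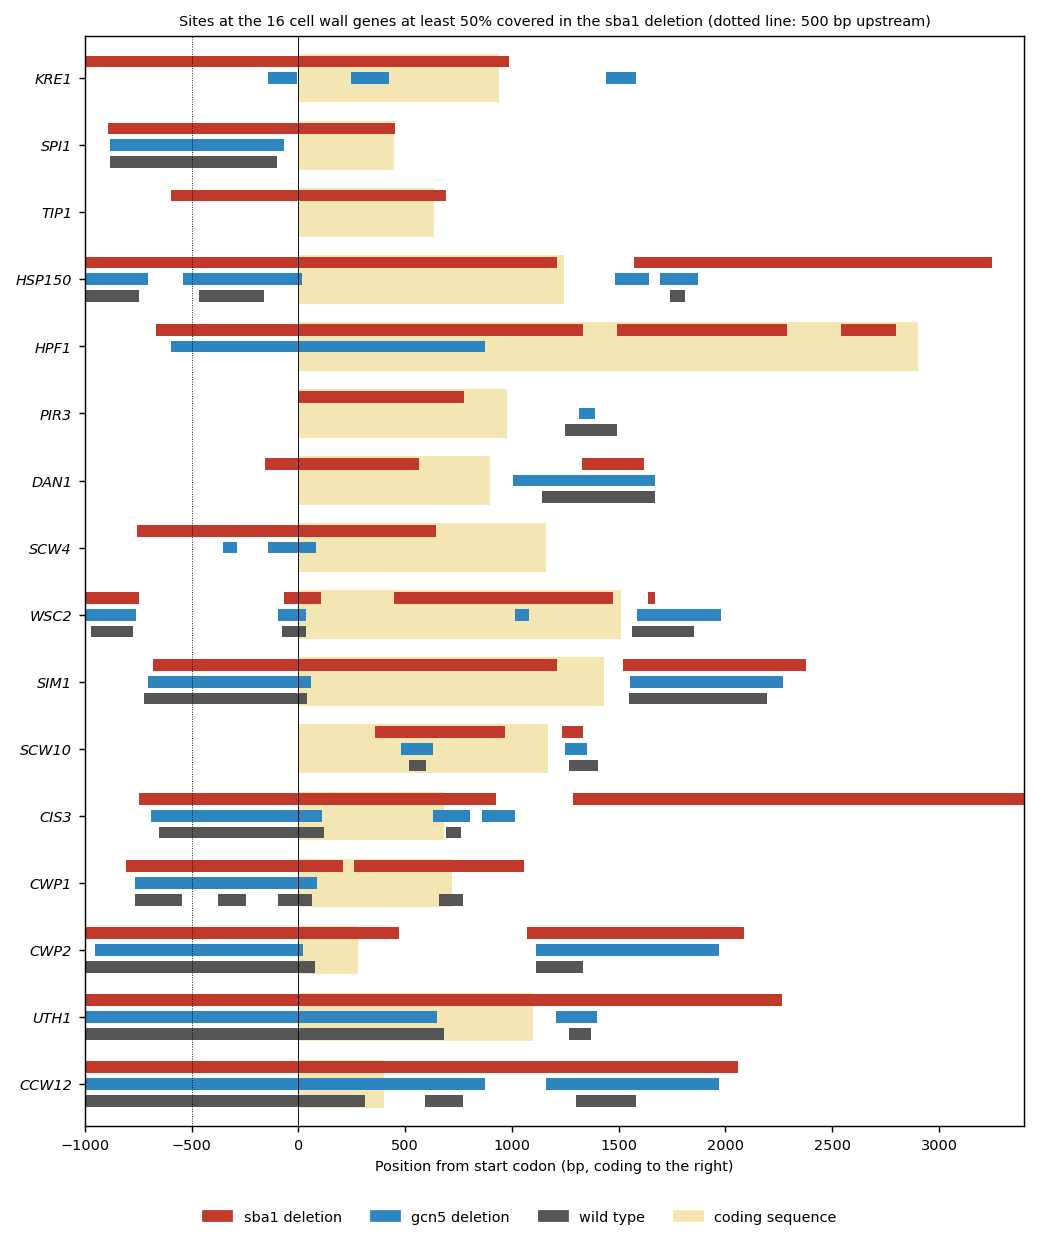
Sites of each strain (bars, sba1Δ above gcn5Δ above wild type) drawn to scale against distance from the start codon (x axis, bp), with the coding sequence shaded and a dotted line 500 bp upstream, for the 16 wall genes at least 50% covered in sba1Δ. The SPI1 sites share their upstream end, 890 bp before the start codon in sba1Δ and 880 bp in gcn5Δ and wild type, and differ at the other end; bars that reach the left edge run on beyond it.

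The ends of the sba1Δ sites over these genes were set beside those of all genes that passed the same 50% step. That step itself favours sites that reach far into a gene. In a short gene, any end inside it can lie within 300 bp of the stop codon. With only 16 genes, the differences in shares were not tested. For each of the 16 genes that were at least 50% covered, the site with the most coding bases was taken. It ended within 300 bp of the stop codon in 10 of 16 (62.5%), against 45.3% of the 719 genes of the genome that passed 50%. It began upstream of the start codon in 12 of 16 (75.0%), against 74.8% of the 719. It touched the coding sequence of no other gene in 12 of 16 (75.0%), against 35.0% of the 719, and its median width was 1446 bp, against 1550 bp. The SPI1 site ended 6 bp past the coding sequence in sba1Δ, whereas the gcn5Δ site stopped 67 bp and the wild-type site 100 bp before the start codon. The KRE1 site ended 46 bp past the coding sequence and the TIP1 site 58 bp past it, and the HSP150 site stopped 30 bp short of the end. PIR3 was the reverse at its start, with a site that began 3 bp inside the gene and left the promoter uncovered. Sites over CCW12 and UTH1 ran far past the gene, and that of UTH1, 3669 bp wide, also spanned all of YKR041W and SHB17. Of the 16 sba1Δ sites, 9 overlapped a wild-type site (56.3%), against 74.4% of the 719.

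Short wall genes were more often covered than long ones. Under 1000 bp, 9 of 17 wall genes were at least 50% covered in sba1Δ (52.9%, interval 27.8 to 77.0%), where 19.0% of all genes in that length class were. From 1000 bp to under 2000 bp it was 6 of 28 (21.4%, interval 8.30 to 41.0%), against 10.2% of all genes, and from 2000 bp it was 1 of 10, HPF1, against 2.34% of all genes. In gcn5Δ the 2 wall genes over 50% were CCW12 (1 of 17 short genes, all genes 10.8%) and UTH1 (1 of 28, all genes 4.32%), with 0 of 10 in the longest class (all genes 0.302%). In wild type they were the same genes, 1 of 17 (all genes 10.1%), 1 of 28 (all genes 3.53%) and 0 of 10 (all genes 0.302%), and 0 of 10 allows a share of up to 30.0%. The median coding length was 960 bp for the 16 covered wall genes and 1455 bp for the other 39.

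**Figure D4:**
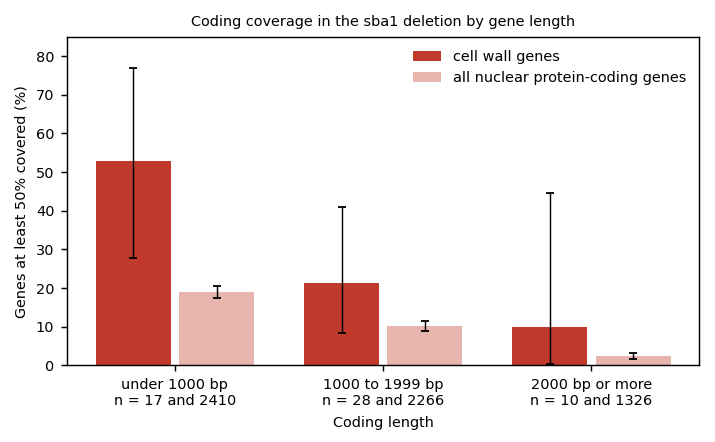
Share of genes at least 50% covered in sba1Δ (y axis, percent, bars from 0) by coding length class (x axis) for the wall genes and all nuclear protein-coding genes, with exact 95% intervals that cover counting error only. The wall genes under 1000 bp reach 52.9%, where all genes of that length reach 19.0%, and the intervals of the longer wall genes include the shares of all genes.

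In the promoters, taken as the 500 bp before the start codon, wall genes gained more sites than they lost. A site was present in 29 of 55 in sba1Δ (52.7%, interval 38.8 to 66.3%), 28 in gcn5Δ (50.9%, 37.1 to 64.6%) and 24 in wild type (43.6%, 30.3 to 57.7%). Over all genes, 38.7% had one in sba1Δ, 43.9% in gcn5Δ and 43.2% in wild type. Of the 31 wall genes with no wild-type promoter site, 11 had one in sba1Δ (35.5%, interval 19.2 to 54.6%), where 19.7% of all such genes did, and 6 had one in gcn5Δ (19.4%, 7.45 to 37.5%), where 11.9% did. Of the 24 with a wild-type site, 6 had none in sba1Δ (25.0%, 9.77 to 46.7%), where 36.5% of all such genes had none, and 2 had none in gcn5Δ (8.33%, 1.03 to 27.0%), where 14.0% had none. The interval of each gain and loss includes the share of all genes. Counted by the site's midpoint, the order turned in sba1Δ, with 11 promoters holding a site, 6 gains and 13 losses, and with sites of 250 bp there were 10 gains and 10 losses. A site was gained in both deletions in 5 of 31 wall genes (16.1%, interval 5.45 to 33.7%, all genes 6.57%) and lost in both in 2 of 24 (8.33%, interval 1.03 to 27.0%, all genes 11.9%).

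**Figure D5:**
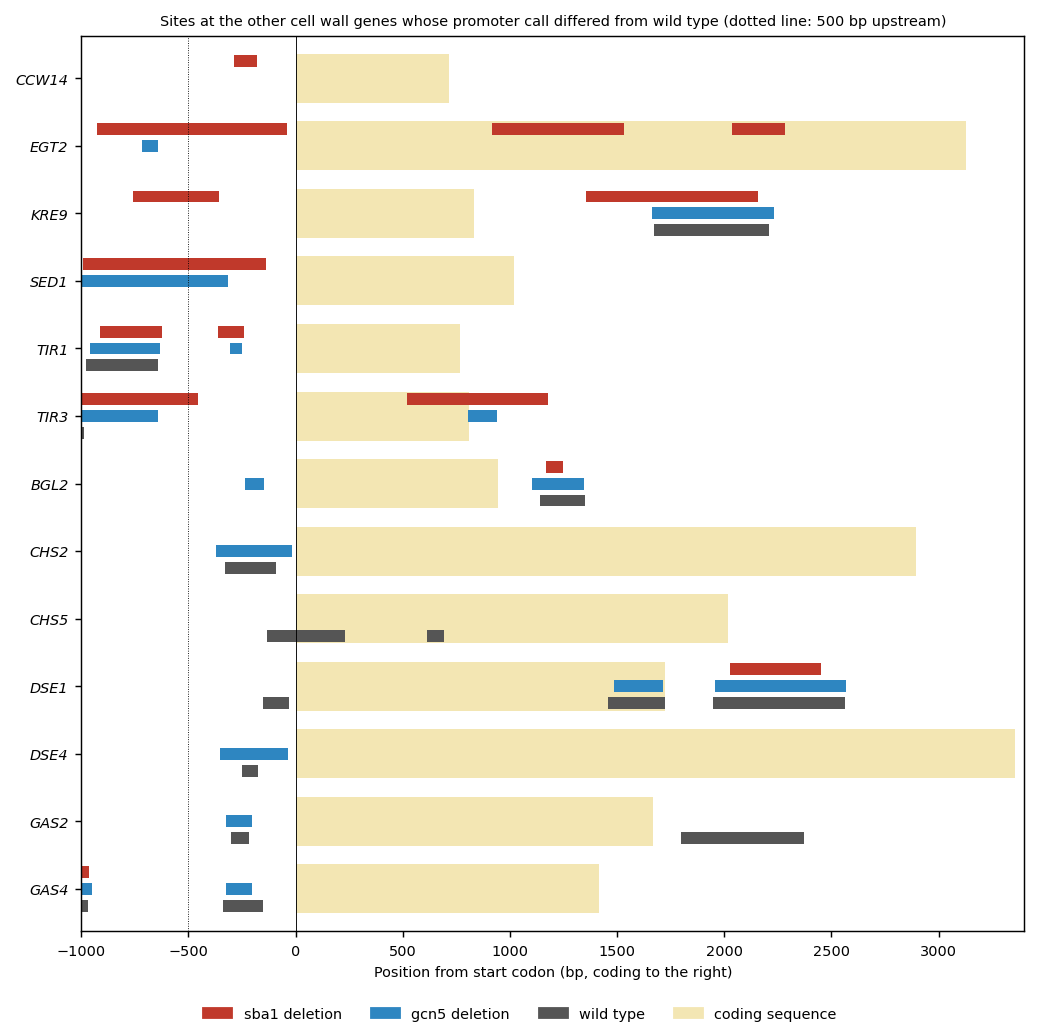
Sites of each strain (bars, sba1Δ above gcn5Δ above wild type) against distance from the start codon (x axis, bp), with the coding sequence shaded and a dotted line 500 bp upstream, for the 13 wall genes whose promoter call differed from wild type and that are not in the map of the 16 covered genes. SED1 and TIR1 have a promoter site in sba1Δ and gcn5Δ and none in wild type, CHS5 and DSE1 have one only in wild type, and the sites lost in sba1Δ at CHS2, DSE4, GAS2 and GAS4 are present in gcn5Δ.

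In sba1Δ, 7 of the 11 gains and none of the 6 losses were in the structural group. That group holds 25 of the 55 genes and was pooled after the values had been seen. Over all genes with no wild-type site 19.7% gained one in sba1Δ, and of those with one 36.5% lost it. Counted by the site's midpoint, the losses did include structural genes, such as CCW12, CIS3 and HSP150. Their wide sba1Δ sites have midpoints inside the gene. HPF1, SED1, TIR1, KRE1 and SCW4 had a promoter site in both deletions and none in wild type. SED1 encodes the main structural GPI protein of stationary-phase walls, and its site, at chromosome IV 599803 to 600652 in sba1Δ and 599732 to 600475 in gcn5Δ, overlapped no coding base of the gene. The TIR1 sites were small, 120 bp in sba1Δ and 55 bp in gcn5Δ. TIP1, CCW14, TIR3, DAN1, KRE9 and EGT2 had a promoter site in sba1Δ and in neither other list. Those of TIP1 and DAN1 ran on into the coding sequence, and that of CCW14, a gene for an inner-layer GPI protein, was 103 bp wide and lay 183 bp or more before the start codon. The TIR3 site entered the window by 45 bp and that of KRE9 by 143 bp, and the KRE9 site also overlapped 7.91% of SWI3, a chromatin remodelling gene. At TIR3 the other lists also held a site further upstream, outside the window. It ended at -643 bp from the start codon in gcn5Δ and at -990 bp in wild type. The EGT2 site covered 34.9% of its divergent neighbour MDJ2, and gcn5Δ held a site from -718 to -643 bp, outside the window. BGL2, a major wall glucanosyltransferase gene, had a site of 86 bp in gcn5Δ and in neither other list.

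The 6 promoter sites lost in sba1Δ belonged to the chitin synthesis genes CHS2 and CHS5, the daughter separation genes DSE1 and DSE4 and the glucan elongase genes GAS2 and GAS4. The 11 structural wall genes with a wild-type promoter site all had one in sba1Δ when counted by overlap. A count of 0 of 11 allows a share lost of up to 27.3%, where 36.5% of all such genes had lost theirs. Because the group was pooled after the values had been seen, this limit does not show that its sites were spared. By midpoint, CCW12, CIS3 and HSP150 were among the losses. CHS5 and DSE1 had no promoter site in gcn5Δ either. The wild-type sites concerned were mostly narrow, 76 bp at DSE4, 81 bp at GAS2, 122 bp at DSE1, 187 bp at GAS4, 238 bp at CHS2 and 366 bp at CHS5. The deposited score, the authors' own value and used only within 1 list, put the DSE4 site at or above 3.19% of wild-type sites and the CHS5 site at or above 75.1%. The CHS2 window is shared with SCO1, and the GAS2 site overlaps YLR342W-A, so these sites have more than 1 possible gene. GAS2 and GAS4 are known to act in spore wall formation.

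A promoter site was present in all 3 strains in 18 of the 55 (32.7%), where 26.6% of all genes had this. In these 18 the site end nearest to or furthest into the gene lay at a median of 79.5 bp past the start codon in sba1Δ, 37 bp in gcn5Δ and 38 bp in wild type, and over the 1595 such genes of the genome at 46 bp in sba1Δ, 19 bp in gcn5Δ and 16 bp in wild type. It lay at least 300 bp further in sba1Δ than in wild type in 7 of 18 (38.9%), where 22.9% of all such genes did, and in gcn5Δ in 1 of 18 (5.56%), where 5.77% did. The 7 were CCW12, UTH1, HSP150, SIM1, CIS3, SPI1 and CWP2, all from the GPI, PIR and SUN groups. The site end was 1747 bp further in for CCW12, 1582 bp for UTH1 and 1371 bp for HSP150. In FKS1, ECM33, CHS7, KRE6, CRH1 and GSC2 the sba1Δ end lay less far in, by -151 bp for FKS1 to -27 bp for GSC2 relative to wild type. EXG1, YGP1, NCA3, WSC2 and CWP1 had it 10 to 150 bp further in. GSC2 and CHS7 kept wide promoter sites in every strain, 1444 bp in sba1Δ, 1366 bp in gcn5Δ and 1380 bp in wild type for GSC2, which also took in all of NAG1, and 991 bp in sba1Δ, 1076 bp in gcn5Δ and 1087 bp in wild type for CHS7, next to RPL42B.

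The coding coverage of wall genes in gcn5Δ was far below that in sba1Δ, with more genes above wild type than below it. It was higher than wild type in 14 genes (25.5%), where 15.5% of all genes were higher, and lower in 8, where 21.0% were; with sites of 250 bp 6 were higher and 6 lower, and with the better-scored 50% of each list 8 were higher and 6 lower. In sba1Δ it was higher in 23 genes, where 24.0% of all genes were, and lower in 6, where 20.6% were. No site touched the promoter or coding sequence in any strain for 13 of the 55 (23.6%), against 32.1% of all genes. These were PST1, PIR1, TIR2, TOS1, CHS3, EXG2, GAS3, GAS5, UTR2, CTS1, DSE2, SCW11 and MID2. They include CHS3, for the main chitin synthase, and 3 of the 6 daughter separation genes, CTS1, DSE2 and SCW11. Several of the wall genes have internal repeats or close relatives in the genome, and the sources used here do not state how reads with several matches were placed.

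A further 97 genes with wall roles, in 5 lists, were examined for the same measures. Together they lay near the values of all genes. A promoter site was present in 38 in sba1Δ (39.2%, all genes 38.7%), 38 in gcn5Δ (39.2%, all genes 43.9%) and 35 in wild type (36.1%, all genes 43.2%). Coding bases were 11.0% covered in sba1Δ (all genes 9.44%), 4.17% in gcn5Δ (all genes 5.22%) and 3.58% in wild type (all genes 5.28%). At least 50% was covered in 11 in sba1Δ (11.3%, all genes 12.0%), 4 in gcn5Δ (4.12%, all genes 6.05%) and 3 in wild type (3.09%, all genes 5.46%). The list of 22 flocculins, agglutinins and other wall proteins held 8 of those 11, and its coding bases were 28.3% covered in sba1Δ, 9.62% in gcn5Δ and 7.17% in wild type. The 18 genes of cell wall integrity signalling were 4.32% covered in sba1Δ, 2.34% in gcn5Δ and 1.36% in wild type. The 16 transcriptional regulators were 5.51% covered in sba1Δ, 2.35% in gcn5Δ and 4.00% in wild type, the 23 mannosylation and GPI genes 6.15% in sba1Δ, 3.60% in gcn5Δ and 2.71% in wild type, and the 18 other chitin and glucan genes 7.42% in sba1Δ, 1.62% in gcn5Δ and 1.91% in wild type. PRY1 and PRY2, genes for secreted sterol-binding proteins, were 100% covered in sba1Δ, and PRY1 was at 0% in gcn5Δ and wild type, while PRY2 was 8.18% covered in gcn5Δ and 4.04% in wild type. PRY3, next to PRY1, was 100% covered in sba1Δ, 48.7% in gcn5Δ and 39.6% in wild type. YPS3, an aspartic protease gene, was 100% covered in sba1Δ, 50.2% in gcn5Δ and 0% in wild type, and CRR1, a spore wall gene, was 100% in sba1Δ, 1.50% in gcn5Δ and 2.13% in wild type. The mannoprotein genes FIT1 and FIT2, which help to retain siderophore iron, were 91.6% and 65.8% covered in sba1Δ, 20.9% and 0% in gcn5Δ and 13.9% and 0% in wild type. WSC4, a sensor gene related to WSC2, was 59.2% covered in sba1Δ, 36.4% in gcn5Δ and 4.68% in wild type. A promoter site was gained in both deletions at KRE2, DAN4, CRR1 and FIT2 and lost in both at CDA1, PGA1, KRE5 and MKK2. Over all genes, 6.57% of those with no wild-type site gained one in both, and 11.9% of those with one lost it in both. The shares of the 97 genes were close to these.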

How the data were processed

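Groups were taken from the genotype of each sample, with 1 library per strain. Per the submitters' processing notes, Bowtie 0.12.7 and the sacCer3 build were used; the sources used here give no peak caller, threshold, sequenced DNase I level or read depth. Each file, deposited by the authors, lists position, name and score of the hypersensitive sites of 1 sample. This score of the authors carries no scale, and it served only to rank sites within its own list. The members and lists were chosen with earlier results of these data known. Gene positions came from the RefSeq table of R64 (treated as identical to sacCer3), with strand read from the systematic names. A promoter was the 500 bp before the start codon, with an overlap of at least 1 bp. Coverage is the share of coding bases under sites. Values are given in full for genes whose promoter call changed, whose coding sequence was at least 50% covered, or whose coverage differed by at least 25 points; genes of the other wall lists are named where the promoter call changed in both deletions or coverage differed by at least 50 points. The counting steps were tested on simulated data. Alternatives were windows of 250 and 1000 bp, a site midpoint or 50 bp of overlap, the better-scored 50% of each list, equal numbers of sites, sites of 250 bp, and sites within 150 bp merged. Python 3.11.15 was used, with matplotlib 3.10.9 for figures, scipy 1.17.1 for intervals, and pandas 2.3.3 with numpy 2.4.6 for counting.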

Additional observations from a re-analysis of the deposited data

Results flagged for a closer look

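Several values moved in opposite directions in the 2 deletions relative to the shared wild-type list; with 1 library per strain these differences were not tested. CWP1 coding coverage was 75.3 points above wild type in sba1Δ and fell by 5.14 points in gcn5Δ. For CWP2 the difference was 71.7 points in sba1Δ and -20.8 points in gcn5Δ, and for UTH1 it was 37.8 points in sba1Δ and -3.28 points in gcn5Δ. GAS1 differed from wild type by 8.45 points in sba1Δ and -4.17 points in gcn5Δ. FKS1 differed by -1.37 points in sba1Δ and 0.0888 points in gcn5Δ, and KRE6 by -0.555 points in sba1Δ and 3.28 points in gcn5Δ, through the ends of promoter sites. The pooled coding coverage of the SUN family differed by 53.5 points in sba1Δ and -0.354 points in gcn5Δ, and that of the daughter separation genes by 4.76 points in sba1Δ and -0.304 points in gcn5Δ. Among the remodelling enzymes the number with a promoter site differed from wild type by -1 in sba1Δ and 2 in gcn5Δ.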

How the results depend on the processing

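The same 16 genes were at least 50% covered in sba1Δ with the better-scored 50% of each list, equal numbers of sites, merged sites and equal covered bases, the last an alternative chosen after seeing the data. With sites set to 250 bp the number of genes at least 50% covered was 1 in sba1Δ, 0 in gcn5Δ and 0 in wild type. A single site of that width cannot cover 50% of a gene over 500 bp, so this count was largely bound to fall. Pooled coverage at that width was 6.31% in sba1Δ, 2.26% in gcn5Δ and 2.38% in wild type. Pooled coverage with the better-scored 50% was 17.6% in sba1Δ, 3.09% in gcn5Δ and 2.21% in wild type; with equal numbers of sites it was 3.83% in gcn5Δ and 2.59% in wild type, and with equal covered bases 16.9% in sba1Δ. Counting a promoter site by its midpoint gave 11 genes with a site, 13 losses and 6 gains in sba1Δ. Losses in sba1Δ were 2 with the better-scored 50%, 3 with equal numbers and 10 with sites of 250 bp. In gcn5Δ the better-scored 50% gave 17 promoter sites, 3 gains and 8 genes with higher coverage, equal numbers gave 1 loss, and sites of 250 bp gave 6 genes with higher coverage. The gains of KRE1, SCW4 and EGT2 in sba1Δ held in 9 of 9 alternatives, that of TIR3 in 4 and that of KRE9 in 5. Equal numbers of sites could not undo a gain in sba1Δ, since that list was unchanged. Differences from wild type changed sign for CIS3 in gcn5Δ (-1.17 points, better-scored 50%), for CWP1 in sba1Δ (-7.22 points, sites of 250 bp) and for CWP1 in gcn5Δ (12.4 points with the better-scored 50%, 3.47 with equal numbers). Differences in sba1Δ became 0 for SPI1, KRE1 and CWP2 with sites of 250 bp, for NCA3 with the better-scored 50% and equal covered bases, and for EGT2 with equal covered bases. The number of genes at least 25 points above wild type in sba1Δ went from 19 to 5 with sites of 250 bp, and 4 of the 5 were among the 19. A single site of that width cannot give 25 points in a gene over 1000 bp. The cause was not tested. No paired analysis was possible because each strain has 1 library, and for the same reason no replicate could be left out. Unknown depth limits every statement that a site was not present.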
